A study of Enchytraeus crypticus with 9 samples.

Results

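Cocoons of the potworm Enchytraeus crypticus that had spent 1 day in soil with 16 mg cadmium per kg were compared with cocoons kept for the same day in soil without added cadmium. The comparison rests on 6 of the 9 arrays of the series, 3 at 16 mg Cd/kg and 3 controls, taken by their group labels. The arrays at 5 mg Cd/kg, known to be more variable, were left out of the fit to keep them out of the spread. The number of calls depended on this choice, as given below. The cadmium group lay in LUFA 2.2 soil spiked with cadmium, and the control group in the same soil, un-spiked. All cocoons were 1 to 2 days old after laying, and each array carried RNA of 1 whole-cocoon extract made from a pool of 300 cocoons, so a value averages over many embryos and over every tissue in them. The series' design text calls the 3 pools of a group biological replicates. Of 43750 probes on the array, 25808 were tested here, because the scanner software marked them well above background throughout the 3 cadmium arrays, the 3 controls or both.

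Enchytraeids are small oligochaete worms of the soil, and their embryos develop inside a cocoon that lies in contact with soil and pore water. Cadmium is a metal with no known nutritional role in these worms. It binds to thiol groups of proteins, can displace zinc and calcium, and is known in many animals for inducing metallothioneins, small cysteine-rich proteins that bind metals, together with heat shock proteins and enzymes of the glutathione system. The deposited files do not pair the probe identifiers with gene names, so none of these families could be looked up, and the results below describe groups of probes and 4 single probes. The identifiers are of 2 kinds: 23177 probes are named as contigs, which are sequences assembled from several reads, and 20573 have read names, given to 1 sequencing read each. No probe sequence was among the data used here.

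Levels are given on the log2 scale relative to the 75th percentile of the same array, so a level of 0 is the brightness of that percentile and a difference of 1 is a 2-fold change. That percentile had a processed signal of 48.9, 79.6 and 87.3 for the 16 mg pools, against 78.1, 74.4 and 74.5 for the control pools. Probes well above background numbered 25315 ± 2597 on the 16 mg arrays and 28127 ± 1734 on the controls (SD, n = 3 each; exact permutation test, two-sided, p = 0.3). The counts were 22361, 27239 and 26346 on 16 mg arrays 1 to 3 and 28727, 29481 and 26173 on the controls. Much of the gap came from 16 mg array 1: the mean difference was -2812 with it and -1334.5 without it. The median local background was 38, 37 and 34.5 at 16 mg Cd/kg, against 30, 31 and 35 in controls. The controls at 30 and 31 were scanned in sessions without a 16 mg array, and the control at 35 together with 16 mg array 1. With 3 arrays against 3 the smallest p such a test can give is 0.1; so few arrays also limit how precise any value can be.

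The 2 groups differed over a large part of the array. Limma, fitted on these 6 arrays with Benjamini-Hochberg adjustment over all tested probes, called 11106 probes at an adjusted p under 0.05, which is 43% of those tested. Of these, 5258 were higher at 16 mg Cd/kg (20.4% of tested probes) and 5848 were lower (22.7%). This balance depended on the filter. Of the 21179 tested probes above background on all 6 arrays, 5052 were called higher and 3889 lower. Probes detected in all controls but on 0, 1 or 2 of the 16 mg arrays gave 535, 601 and 823 lower calls. In reverse, probes detected on all 16 mg arrays but in 0, 1 or 2 controls gave 35, 51 and 120 higher calls. Changes were mostly modest: the median log2 fold change was 0.99 among the higher probes and -1.06 among the lower ones. More than 2-fold changes were found for 2557 higher and 3001 lower probes, or 9.91% and 11.6% of those tested, and more than 4-fold changes for 97 and 127. In the counts past 2-fold and 4-fold, probes undetected throughout a group enter with the lower bound explained further on. Fewer cells of a type and less RNA per cell cannot be told apart in such pools.

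The groups did not overlap for many more probes than were called. For 7263 tested probes (28.1%) the lowest cadmium array exceeded the highest control, for 7888 (30.6%) the highest cadmium array was under the lowest control, together 58.7%, and 10800 of the 11106 called probes were separated in this way. The number of calls depended on single libraries. Without control array 1 or 3 limma called 0 probes, with smallest adjusted p-values of 0.0583 and 0.0606, and without control array 2 it called 2532, whereas 10331, 6696 and 12578 were called without 16 mg arrays 1, 2 and 3. At an unadjusted p under 0.05 there were 11255 probes without control array 1 and 11052 without control array 3, against 14288 with all 6 arrays. With the 5 mg arrays added to the fit, limma also called 0, at a smallest adjusted p of 0.111 and with 7256 probes at an unadjusted p under 0.05.

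Pools exposed to 16 mg Cd/kg were less alike than control pools. Across tested probes the median SD was 0.38 at 16 mg Cd/kg and 0.20 in controls on the log2 scale, and 78.0% of probes varied more among the cadmium pools. The root mean square difference between arrays was 0.697 to 0.753 for pairs of 16 mg arrays, 0.747 to 1.22 between a 16 mg array and a control, and 0.390 to 0.430 for pairs of controls. The median SD was larger at 16 mg Cd/kg in each of 5 ranges of level, from 0.45 against 0.25 among probes below a level of -2 to 0.30 against 0.16 among those above 4. The cadmium arrays also lay at different distances from the controls. Among called probes the median shift from the control mean was 0.97, 1.24 and 0.75 for the higher probes on 16 mg arrays 1, 2 and 3, and -0.98, -1.37 and -0.83 for the lower ones, so array 2 was the farthest and array 3 the nearest in both directions.

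Among probes well above background on all 6 arrays, the largest rise was that of contig01277. Its levels were 3.45, 2.47 and 4.08 on the 16 mg arrays, against -0.83, -0.64 and -0.23 on the controls. All cadmium pools were thus far above all control pools, and the probe moved from below to well above the brightness of the 75th percentile. The means were 3.33 ± 0.81 at 16 mg Cd/kg and -0.57 ± 0.31 in controls (SD, n = 3 each), so that cadmium pools were higher by 3.90 ± 0.39 on the log2 scale (SE), or 14.9-fold (limma adjusted p = 0.0127). It stood apart from the other probes that rose, since the next largest log2 fold change among 4906 probes that met the same conditions was 2.97 and the tenth was 2.40. At 5 mg Cd/kg its levels were 2.90, 0.08 and 2.10, which is above all controls on every array but spread widely.

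The largest fall among such probes was that of contig18202. Its levels were -0.18, -2.12 and -0.07 on the 16 mg arrays, against 4.43, 2.25 and 3.15 on the controls. The groups did not overlap, although both were spread over about the same range. The means were -0.79 ± 1.15 at 16 mg Cd/kg and 3.27 ± 1.1 in controls (SD, n = 3 each), and the level fell by 4.07 on the log2 scale with an SE of 0.64, or 16.8-fold (limma adjusted p = 0.0127). The next largest fall was 3.73 on the log2 scale, a log2 fold change of -3.73, and the tenth was -2.78, among 3795 probes. At 5 mg Cd/kg the levels of contig18202 were 0.93, 1.36 and 0.48, between those of the other groups.

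The files pair neither of these identifiers with a gene. Within slides contig01277 differed by 3.99 on slide 1 and 3.91 on slide 2, both slightly more than over all 6 arrays, and contig18202 by -3.97 and -3.35, both less than over all 6 arrays. Between the doses, the 9-array fit gave contig01277 a difference of 1.64 at 16 mg over 5 mg Cd/kg (95% interval 0.18 to 3.102; limma adjusted p = 0.856) and contig18202 one of -1.72 (95% interval -3.15 to -0.29; limma adjusted p = 0.776). Neither passed the threshold after adjustment.

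**Figure D1:**
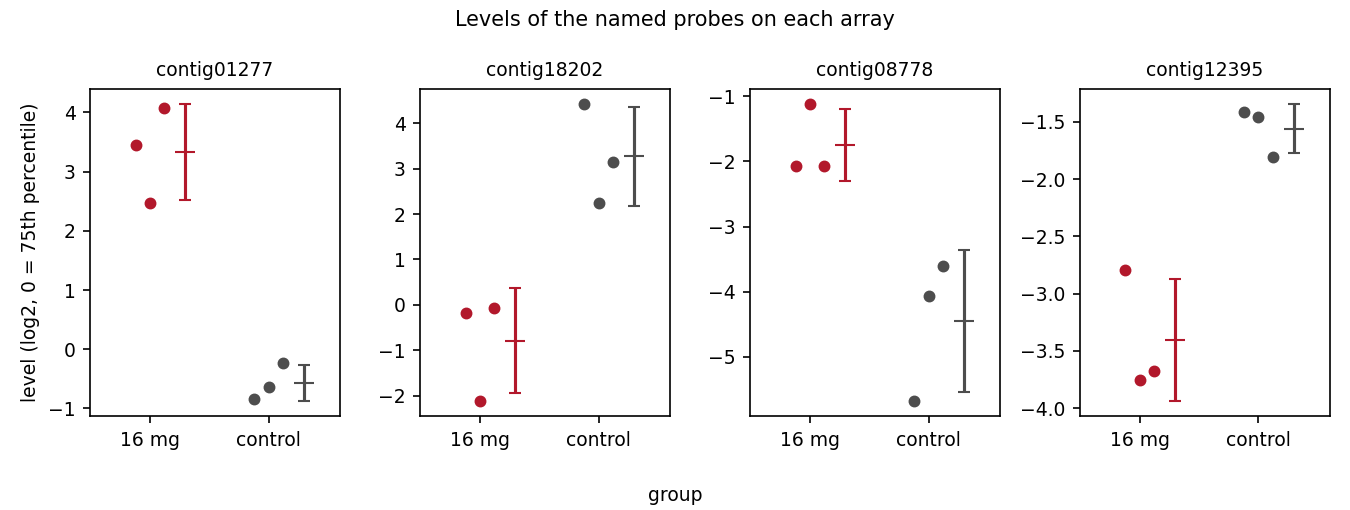
Level of the 4 named probes on each array (log2, 0 is the 75th percentile of the array; the scale differs between panels), for the 16 mg Cd/kg group on the left and the control group on the right of each panel. Points are arrays, and the bar beside them is the mean with its SD (n = 3); in all panels the groups are separate, by the widest margin in contig01277, with 16 mg arrays at 2.47 or above and controls at -0.23 or below.

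Other probes crossed the limit of detection. Of 43691 probes with no spot marked as irregular, 674 (1.54%) were detected in all 3 control pools but in none exposed to 16 mg Cd/kg, and 35 (0.0801%) in all 3 exposed pools but in no control. Both counts depended on the flag or on single arrays: the lost probes numbered 195 by the software's weaker flag, which asks only for a positive and significant signal, and 717 to 1323 with 1 array left out, and the gained probes 37 by that flag and 39 to 194 with 1 array left out. These probes were dim in the group that had them: the highest mean level was -1.56 in controls among the 674 and -1.74 at 16 mg Cd/kg among the 35. For such probes the dim group has only a bound, taken per array as whichever is larger, the level measured for that probe or the minimum among detected probes. By that bound the 35 gained probes were at least 2.37-fold higher at the median, and 25 of them at least 2-fold higher. Of the 674 lost probes, 667 had a bound above 1, with a median of at least 1.49-fold lower, and 80 were at least 2-fold lower. The test passed 35 of the 35 and 535 of the 674, but a probe that enters the test through its bright group had to differ, so these counts are a description.

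The largest bound among gained probes was that of contig08778, at least 4.12-fold higher at 16 mg Cd/kg (limma adjusted p = 0.0129). Its levels were -2.07, -1.12 and -2.07 on the 16 mg arrays, against -5.68, -4.06 and -3.61 on the controls, where it was not well above background. At 5 mg Cd/kg all 3 pools had it too, at levels of -1.55, -2.54 and -1.15. Among lost probes, contig12395 had the largest bound, 3.596-fold lower at 16 mg Cd/kg (limma adjusted p = 0.0127). On each 16 mg array its measured level exceeded the minimum among detected probes. This value is therefore its measured fold change, from levels not well above background, and not a guaranteed minimum. The 16 mg arrays gave levels of -2.79, -3.75 and -3.67, against -1.42, -1.45 and -1.81 on the controls. It was above background on no array at 5 mg Cd/kg either. Each of these probes entered the test only through the group that had it and was picked for its bound, so the adjusted p-values are given as the fit returned them and support nothing by themselves. With normexp background correction and quantile normalization, contig08778 had an adjusted p of 0.108 in limma, in a range of 0.00419 to 0.484 over its alternatives. The log2 fold changes with normexp were 0.25 for contig08778 and -0.22 for contig12395. By the same bound, contig08778 was at least 3.02-fold higher at 16 mg Cd/kg within slide 1. Within slide 2 its measured fold change was 5.52. The measured level of contig12395 was 2.27-fold lower within slide 1 and 4.78-fold within slide 2. In the 1 scan session that held both groups, 16 mg array 1 was set against control array 3. There contig08778 was at least 2.68-fold higher by its bound, and contig12395 was 1.98-fold lower as measured.

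The direction of change went with how bright a probe was. Probes were divided by their mean level over all 6 arrays. Among the 6851 probes below a level of -2, 5.97% were called higher at 16 mg Cd/kg and 32.5% lower, with a median log2 fold change of -0.55. Between -2 and 0 the shares were 13.2% and 29.6% of 8147 probes. Between 0 and 2 they were 28.5% and 17.6% of 4964 probes. Above a level of 4 the balance was the opposite of that among dim probes: 40.5% of 2995 probes were called higher and 3.27% lower, with a median of 0.56. Over all tested probes the shares were 20.4% and 22.7%.

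Each cadmium array showed this pattern. The median shift of probes below -2 was -0.40, -0.60 and -0.53 on 16 mg arrays 1 to 3, and that of probes above 4 was 0.66, 0.66 and 0.34. The same medians for each control against the mean of the other controls lay between -0.08 and 0.05 in both ranges; control array 3 ran the same way as the cadmium arrays by these small amounts. In a measure taken over all probes of 1 array, with no filter that reads the others, the 95th percentile of the signal stood above the 75th by 5.09, 5.11 and 4.84 on the log2 scale on the 16 mg arrays, against 4.53, 4.51 and 4.60 on the controls (exact permutation test, two-sided, p = 0.1). The filter takes part at the dim end, since 406 tested probes were above background throughout the 16 mg arrays but not the controls and 4223 throughout the controls but not the 16 mg arrays. Among probes above background on all 6 arrays, the median log2 fold change was -0.26 below a level of -2 and 0.56 above 4. Spike-in RNA of known makeup, added to every sample, covered levels from -1.65 to 10.9. Its 8 species that were above background throughout differed by -0.16 to 0.33 on the log2 scale between the groups, by 0.13 at the dimmest and -0.08 at the brightest, and by 0.22 to 0.33 at levels of 3.75 to 9.27. These are differences of group means. The mean level of the 8 was 5.46, 4.54 and 5.19 on 16 mg arrays 1 to 3 (SD 0.47). On control arrays 1 to 3 it was 5.07, 4.83 and 4.83 (SD 0.14). The part of array brightness and amplification in the pattern was not tested.

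**Figure D2:**
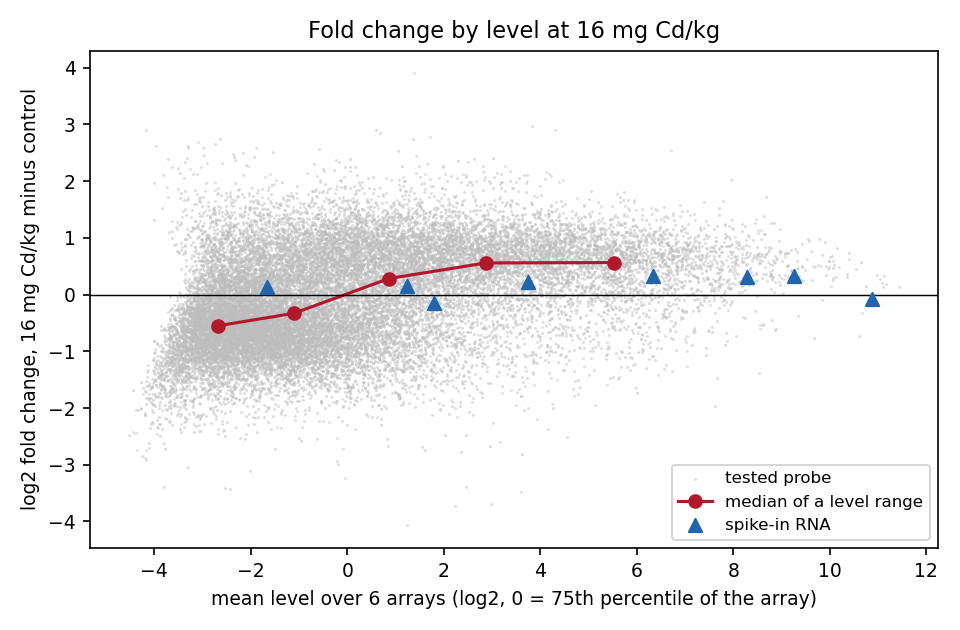
Log2 fold change, 16 mg Cd/kg minus control, of each of 25808 tested probes (grey) against its mean level over the 6 arrays (log2). Red points are the medians of 5 ranges of level, running from -0.55 for the dimmest to 0.56 for the brightest, and blue triangles are 8 spike-in RNAs, which lie between -0.16 and 0.33.

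The direction of many calls depended on the point of the level scale that is set equal between arrays. With the median of each array in place of the 75th percentile, 75% of 11077 calls were higher at 16 mg Cd/kg. With the 75th percentile over probes above background on all 6 arrays, 16.0% of 11696 were higher, and with scaling on the spike-ins 15.3% of 4449 were, against 47.3% with the 75th percentile of all probes. The median log2 fold change of all tested probes was 0.23, -0.45, -0.23 and -0.07 in the same order. Quantile normalization, which gives all arrays the same distribution of levels, left 7380 calls (28.6% of tested probes), 3333 higher and 4047 lower. With it the share called higher and lower was 8.79% and 13.8% below a level of -2, and 6.28% and 9.55% above 4. Of its calls 86.8% had been called in the same direction before, which is 57.7% of the 11106.

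**Figure D3:**
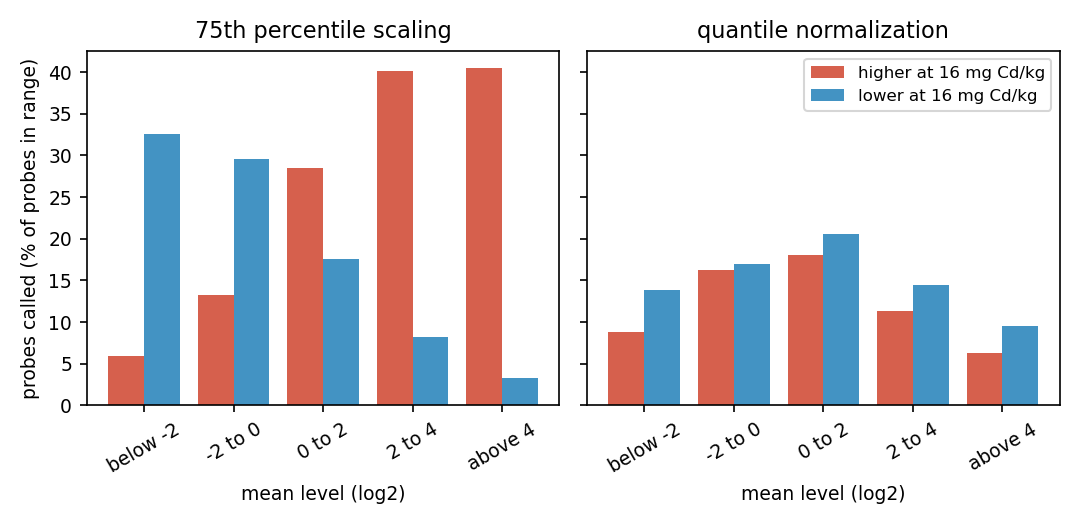
Share of tested probes called higher (red) or lower (blue) at 16 mg Cd/kg than in controls, in 5 ranges of mean level (log2), with levels scaled on the 75th percentile of each array (left) and with quantile normalization (right). On the left the dimmest probes are mostly called lower (32.5%) and the brightest mostly higher (40.5%), and on the right no range has more than 20.6% in either direction.

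A smaller set of probes was called in the same direction under all 6 scalings tried, which were the 75th percentile over all probes or over probes above background on all 6 arrays, the median, the spike-ins, quantile normalization, and normexp followed by quantile normalization. It held 421 higher probes (1.63% of those tested) and 1268 lower ones (4.91%). This balance depends on the scalings tried. Spike-in scaling called only 679 probes higher, which caps the higher set, whereas none of the 6 called fewer than 2762 lower. No probe was called in opposite directions by the 75th percentile and any of the other 5. Little can be read from that. The median, the spike-ins and the other 75th percentile each add 1 constant to every log2 fold change, which leaves little room for a reversed call. The other 5 were not compared among themselves. The median log2 change was 1.55 for the 421 and -1.35 for the 1268, against 1.40 and -1.51 with spike-in scaling and 0.75 and -0.50 with normexp. The lower set took 8.09% of probes between levels of -2 and 0 and 8.34% of those between 0 and 2, against 0.949% below -2 and 0.835% above 4. Below -2 the median log2 fold change was -0.03 with normexp, against -0.55 with the 75th percentile. The part of normexp in the small share there was not tested. The higher set took its largest share, 2.98%, between 2 and 4, against 0.394% below -2 and 1.94% above 4. Of the named probes, contig01277 and contig18202 belonged to the set, as did contig12395, which was tested only because the controls had it, and contig08778 did not. In all 6 scalings contig01277 was higher, by 2.29 to 4.21 on the log2 scale, and contig18202 had a log2 fold change of -4.44 to -2.51.

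Probes named as contigs and probes named as reads moved apart. Of 13782 tested contig probes, 2246 (16.3%) were called higher at 16 mg Cd/kg and 4242 (30.8%) lower, whereas of 12026 read-named probes 3012 (25%) were called higher and 1606 (13.4%) lower. The median log2 fold change was -0.38 for contigs and 0.22 for reads. The difference between the median level of reads and that of contigs on 1 array, which does not depend on a constant scaling factor, was 0.96, 1.34 and 0.87 on the 16 mg arrays, against 0.39, 0.38 and 0.35 on the controls. It averaged 1.06 ± 0.25 at 16 mg Cd/kg and 0.37 ± 0.02 in controls (SD, n = 3 each; exact permutation test, two-sided, p = 0.1), with no overlap between the groups. The filter takes part here: 4223 tested probes entered through the controls only, and 469 of the 674 lost probes were contigs. How much it adds was not tested. Between levels of 0 and 2, 4962 of 4964 probes were above background on all 6 arrays. There the median log2 fold change was -0.09 for contigs and 0.49 for reads.

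The contrast between the kinds of name was found mainly at low and middle levels. Between -2 and 0, 7.59% of contigs were called higher and 39.5% lower, against 20.4% and 17.0% of reads. Between 2 and 4 the shares were alike for higher calls, 40% of contigs and 40.3% of reads. Above 4 the order turned: 49.0% of contigs and 31.6% of reads were called higher. The share of the summed processed signal held by contigs was 56.8%, 56.3% and 55.8% on the 16 mg arrays, against 53.7%, 54.2% and 52.7% on the controls (exact permutation test, two-sided, p = 0.1). Both slides showed the difference, with medians of -0.18 for contigs and 0.22 for reads on slide 1 and of -0.43 and 0.21 on slide 2. It narrowed from 0.61 to 0.38 with quantile normalization and to 0.09 with normexp and quantile normalization, with reads above contigs in each. In the set called under all 6 scalings, 1012 contigs and 256 reads were lower, which is 7.34% and 2.13% of those tested, and 184 and 237 were higher, 1.34% and 1.97%.

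**Figure D4:**
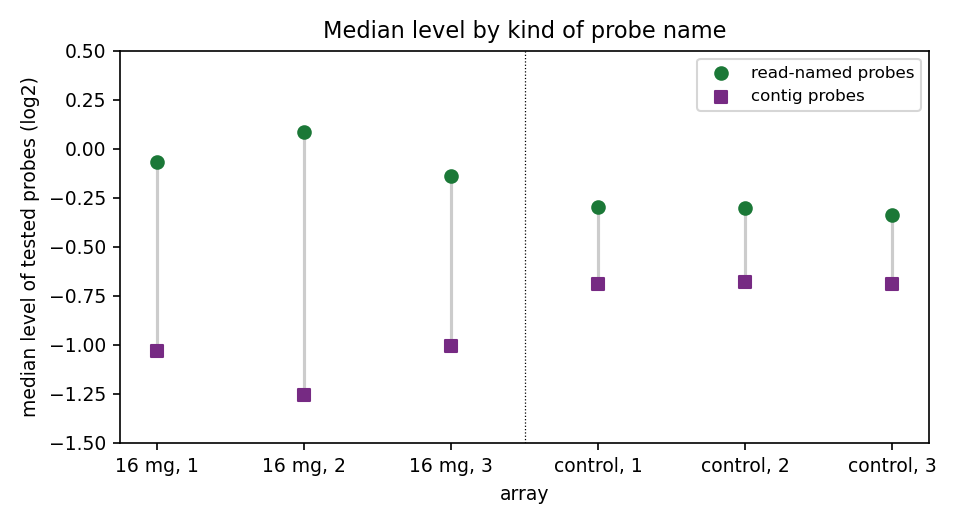
Median level (log2, 0 is the 75th percentile of the array) of tested probes named as reads (circles) and as contigs (squares) on each array, 16 mg Cd/kg on the left and controls on the right. The gap between the kinds of probe is 0.87 to 1.34 on the 16 mg arrays and 0.35 to 0.39 on the controls.

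The file headers place the 6 arrays on 2 slides that each carried both groups, so the comparison could be made on each slide with no array in common. Slide 1 held 16 mg array 1 and control arrays 1 and 3, and slide 2 held 16 mg arrays 2 and 3 and control array 2. On slide 2 the 16 mg arrays were scanned in 1 session and the control in another, so dose and scan session cannot be told apart there. On slide 1, control array 3 shared the session of 16 mg array 1, and control array 1 did not. Of 3215 probes more than 2-fold higher on slide 1, 94.2% were also higher on slide 2, with a median log2 fold change there of 0.90, while 47.2% of all tested probes were higher on slide 2. Of 3588 probes more than 2-fold lower on slide 1, 96.2% were lower on slide 2, with a median of -0.98, against 52.8% of all tested probes. Chosen on slide 2 and read on slide 1, the shares were 96.7% of 2842 higher and 89.4% of 4430 lower probes, against 50.2% and 49.8% of all tested probes. The slides were not fully separate, because the filter that picked the tested probes read all 6 arrays. Through the controls only it let in 4223 probes, and through the 16 mg arrays only 406, which favours a fall on both slides. Agreement among probes above background on all 6 arrays was not computed. Across the 25808 probes, which are not independent replicates and share the pattern with level, the fold changes of the slides correlated at r = 0.70 (Spearman rho = 0.74), and at r = 0.65 after quantile normalization. With the slide as a block in the fit, 6042 probes were called, 5939 of them among the 11106 and in the same direction. The arrays were scanned in 4 sessions, of which 1 held both groups, and with the session as a fixed block, which leaves the comparison to those 2 arrays, limma called 0 probes (2667 at an unadjusted p under 0.05).

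A group of probes behaved very differently in the 3 cadmium pools. The rule was set after these values were seen, so its members are described and not tested: probes above background on all 6 arrays, more than 2.5 above the control mean on 16 mg array 1 on the log2 scale, and more than 2 below that array on at least 1 other 16 mg array. It took 102 probes, 28 contigs and 74 reads. Their median shift from the control mean was 3.27 on 16 mg array 1, 2.18 on array 2 and 0.44 on array 3, against -0.44, 0.43 and -0.01 on control arrays 1 to 3. The middle 50% of members lay between 0.27 and 0.56 on 16 mg array 3, and between 1.90 and 2.41 on array 2. The members were not uniform, with full ranges of -0.81 to 1.42 on array 3 and of -0.40 to 4.17 on array 2. The controls differed in these probes too, with array 2 above array 1 by the medians given above. Some members ran the other way: GYUW2K401AH39X and contig25308 stood at 1.15 and 0.98 on control array 1, and at 0.17 and 0.035 on control array 2. At 5 mg Cd/kg, which the rule did not use, the median shift of the 102 was 3.19, 3.49 and 2.92. On 5 mg array 1 the shifts ranged from -2.69 to 4.41. In 89 of the 102 the 5 mg pools were all above the control pools, as they were for 21.8% of all tested probes. Both doses are set against the same controls. Limma called 83 of the 102 at 16 mg Cd/kg, beside 43% of all tested probes, but the rule used these arrays and nothing is read from that count.

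**Figure D5:**
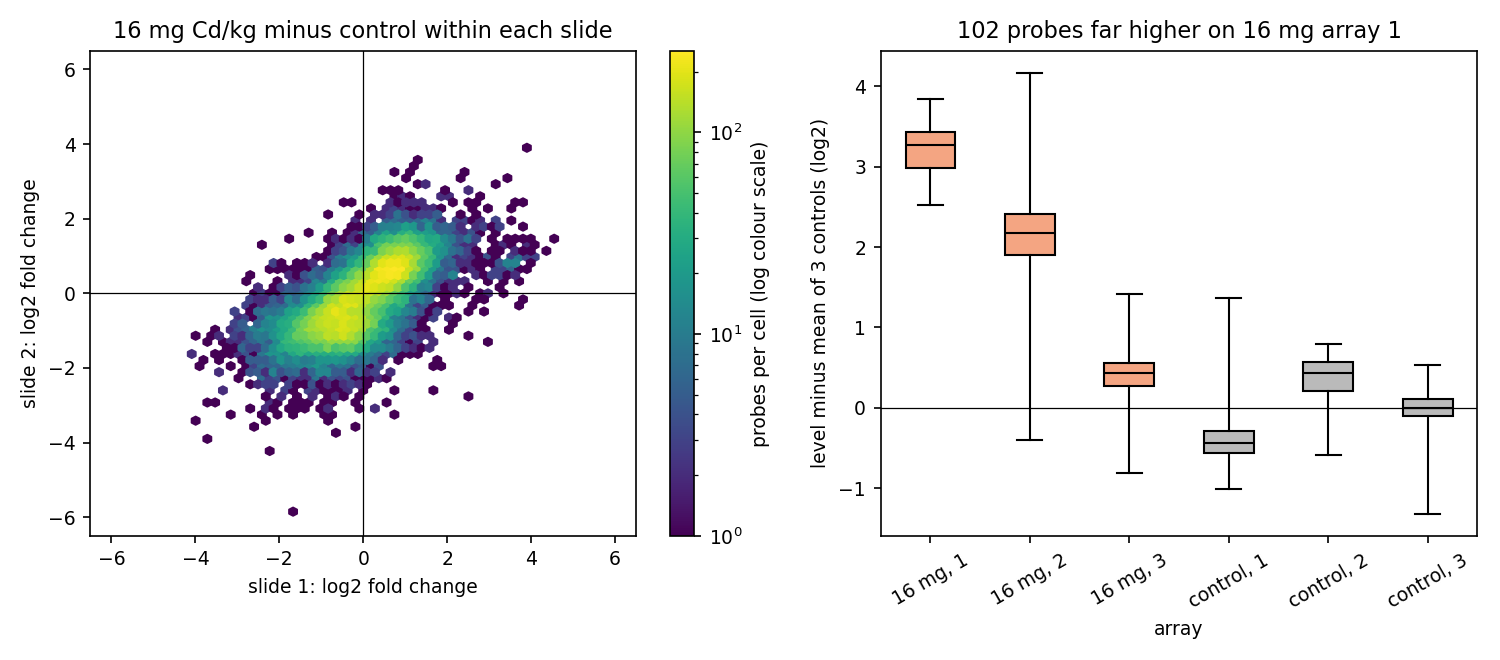
Left, log2 fold change of 25808 tested probes, 16 mg Cd/kg minus control, on slide 1 and on slide 2, with colour for the number of probes per cell on a log scale. Right, level of 102 probes minus the mean of the 3 controls (log2) on each array, as median, quartiles and full range. The medians of these probes are 3.27, 2.18 and 0.44 on 16 mg arrays 1 to 3 and -0.44 to 0.43 on the controls.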

How the data were processed

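Per the labels' protocols, RNA of each pool was amplified and labelled with Cy3 for 1-colour Agilent arrays, with spike-in RNA added. The authors deposited scanner files, made with Agilent Feature Extraction 10.7.3.1 as their headers state, whose processed intensity is linear, background-subtracted brightness that had not been scaled across arrays. The authors' deposited series matrix holds the same signals rounded (largest difference 0.497%, matched by feature number), with column medians of 7.99, 12.0 and 13.8 at 16 mg Cd/kg and 15.6, 15.0 and 13.6 in controls, on the same linear scale and uncentred.

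Control features (1417) and 59 probes with a spot marked non-uniform or outlying were left out, and no probe was saturated. Tested probes were well above background, by the deposited flags, on all arrays of either group. Log2 levels had no pseudocount. Limma 3.58.1 in R 4.3.3, with lmFit and eBayes, was fitted on 6 arrays with 4 residual and 5.11 prior degrees of freedom, two-sided, with Benjamini-Hochberg adjustment at 0.05, and the script was tested on simulated data. Named probes were, in each direction, the called probe with the largest fold change among those above background on all 6 arrays without overlap of the groups, and the called probe with the largest bound among those lost or gained. Normexp (offset 50) used median spot signals, as the files used here hold no mean spot signal. Planned gene lists could not be used without gene names. The comparison, lists and alternatives were chosen with earlier results of these data known. The labels state no pairing of the replicates, so the main fit used none. Same-numbered arrays deviated together at r = 0.04, 0.02 and 0.33. Differently numbered arrays were not compared in this way, so these values do not settle whether the numbers pair the arrays.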

Additional observations from a re-analysis of the deposited data

How the results depend on the processing

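Against 11106 calls with 47.3% higher at 16 mg Cd/kg and a median log2 fold change of -0.07, 11 of 22 settings kept the number of calls within 1.5 times and 5 gave 0. The array median gave 75% higher and a median of 0.23. Quantile normalization gave 7380 calls and 45.2%, normexp with it 5219 calls and a median of -0.012, and spike-in scaling 4449 calls, 15.3% and -0.23. The 75th percentile over probes above background on all 6 arrays gave 16.0% and -0.45, and testing only those probes gave 56.4% and 0.13. Without a filter limma called 0 (13745 at an unadjusted p under 0.05) at a median of 0.072, and with all 9 arrays 0 (7256). Trend and robust estimation gave 50.5%, and the slide as a block 6042 calls and 46.0%. The scan session as a random block gave 14412 calls and 45.8%. Its within-session correlation was -0.59 and only 1 session held both groups, so it cannot be read as a correction for session. The scan session as a fixed block, chosen after seeing the data, gave 0 (2667) and a median of 0.014. The median was 0.0052 within slide 1. The replicate block gave 11778 calls and left each named probe past the threshold, though the labels state no pairing of the replicates. Leaving out 1 array at a time gave 0 to 12578 calls, 43.2% to 50.1% higher, and medians of -0.13 to -0.021. Lost probes numbered 195 by the software's weaker flag, against 674, and 717 to 1323 with 1 array left out, and gained probes 39 to 194, against 35. The median SD ratio of 1.91 was 1.68 with quantile normalization, 1.61 with normexp, and 1.47 to 2.51 with 1 array left out. The causes were not tested. Every named probe kept its direction in each setting that tested it, which the way contig08778 and contig12395 entered the test favours. Not all settings left them past the adjusted threshold. It was passed by contig01277 and contig18202 in 17 of 22 settings each, by contig08778 in 15 of 21 and by contig12395 in 16 of 21. None of the named probes passed it in the 5 settings with 0 calls. Dim probes limit the comparison, since 11238 of 43691 were above background on no array.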

Other observations

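The calls among the brightest probes depended on the scaling. Of the 100 tested probes with the highest mean level over the 6 arrays, limma called 22 higher at 16 mg Cd/kg and 0 lower, beside 20.4% and 22.7% of all tested probes, and with quantile normalization it called 0 higher and 2 lower. Their log2 changes ran between -0.77 and 1.16 about a median of 0.47. Of the 1000 brightest, 379 were called higher and 11 lower, and with quantile normalization 58 higher and 71 lower; their log2 changes ran between -1.96 and 2.54 about a median of 0.53. The share of the summed signal held by the 10 brightest probes of an array was 6.96%, 4.96% and 5.08% on the 16 mg arrays, against 6.82%, 5.85% and 6.94% on the controls (exact permutation test, two-sided, p = 0.4).

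The rule that found the 102 probes far higher on 16 mg array 1 was also applied to the other cadmium arrays and to the lower direction, after the values were seen. Those 102 were high on array 2 as well, and the groups share members. For example, contig25308 met the rule on arrays 1 and 2, with shifts of 3.70, 4.17 and 0.82 on 16 mg arrays 1 to 3. On 16 mg array 2, 52 probes were far higher, 48 of them named as reads, with median shifts from the control mean of 2.33, 2.84 and 0.65 on 16 mg arrays 1 to 3, and 68 were far lower, 44 of them contigs, with medians of -1.73, -2.87 and -0.67. On 16 mg array 3 the rule found 22 higher probes, with medians of 0.71, 0.58 and 3.52 on arrays 1 to 3 and of 2.45, -1.06 and 1.98 on the 5 mg arrays, and 2 lower ones. In the groups that the rule took on arrays 1 and 2, array 3 was the nearest to the controls. The rule itself asks for such a gap to another cadmium array.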
